A study of Mus musculus with 9 samples.

Results

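GDNF, neurotrophin and related trophic factor genes were followed in the substantia nigra of mice given methylphenidate (MPH), a blocker of the dopamine and norepinephrine transporters. The genes were Gdnf, Bdnf and Manf among the ligands and Ret, Gfra1, Gfra2, Ntrk2, Ntrk3, Ngfr and Cntfr among the receptors. A member was any probe set, a group of short probes that reads one transcript, whose platform annotation named exactly 1 gene and that gene was one of these 10. This rule used no measured value and gave 30 probe sets of the 45037 measured.

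Mice of the Swiss Webster strain received saline or MPH into the peritoneum, at 1 mg/kg or at 10 mg/kg, on school days from postnatal day 28 for 12 weeks. The substantia nigra, a midbrain nucleus with the dopamine neurons that supply the striatum, was dissected after 7 days without drug. RNA was read on Affymetrix HT MG-430 PM arrays, 3 arrays a group and 9 in all, and each value is a log2 intensity, so that a difference of 1 is a doubling. The sources used here do not say whether an array held tissue of a single animal or a pool, so p-values measure only the spread between these arrays. Doses are those of the deposited labels, and the gene lists printed by the study match these values with the doses the other way round. For that reason each MPH group is named by the dose on its label.

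GDNF is a secreted survival factor for dopamine neurons. It binds a coreceptor that is anchored to the membrane, GFRα1, and the pair engages RET, a receptor tyrosine kinase that carries the signal into the cell. GFRα2 is the preferred coreceptor of neurturin, a relative of GDNF. The neurotrophin BDNF signals through the kinase TrkB, encoded by Ntrk2, and neurotrophin-3 through TrkC, encoded by Ntrk3, while the p75 receptor encoded by Ngfr binds all neurotrophins. Cntfr encodes the ligand-binding receptor of ciliary neurotrophic factor. MANF is a protein of the endoplasmic reticulum that is induced when unfolded proteins accumulate there and has been described as protective for dopamine neurons.

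Among the receptors, Ret and Cntfr had lower values on all 6 MPH arrays than on all 3 saline arrays, with linear intensities at 61.3% and 77.4% of saline over both doses. Ntrk3 lay lower in the arrays labelled 1 mg/kg on all 7 of its probe sets. Ntrk2, read by 7 probe sets, differed from saline by no more than 0.19 on the log2 scale at either dose. Bdnf and Manf had their highest value on the same single array, and the only Gdnf probe set lay in the range of the nonspecific controls. No member passed an adjusted p of 0.05 in any comparison (limma with a block for the replicate number, Benjamini-Hochberg over 45037 probe sets).

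**Figure D1:**
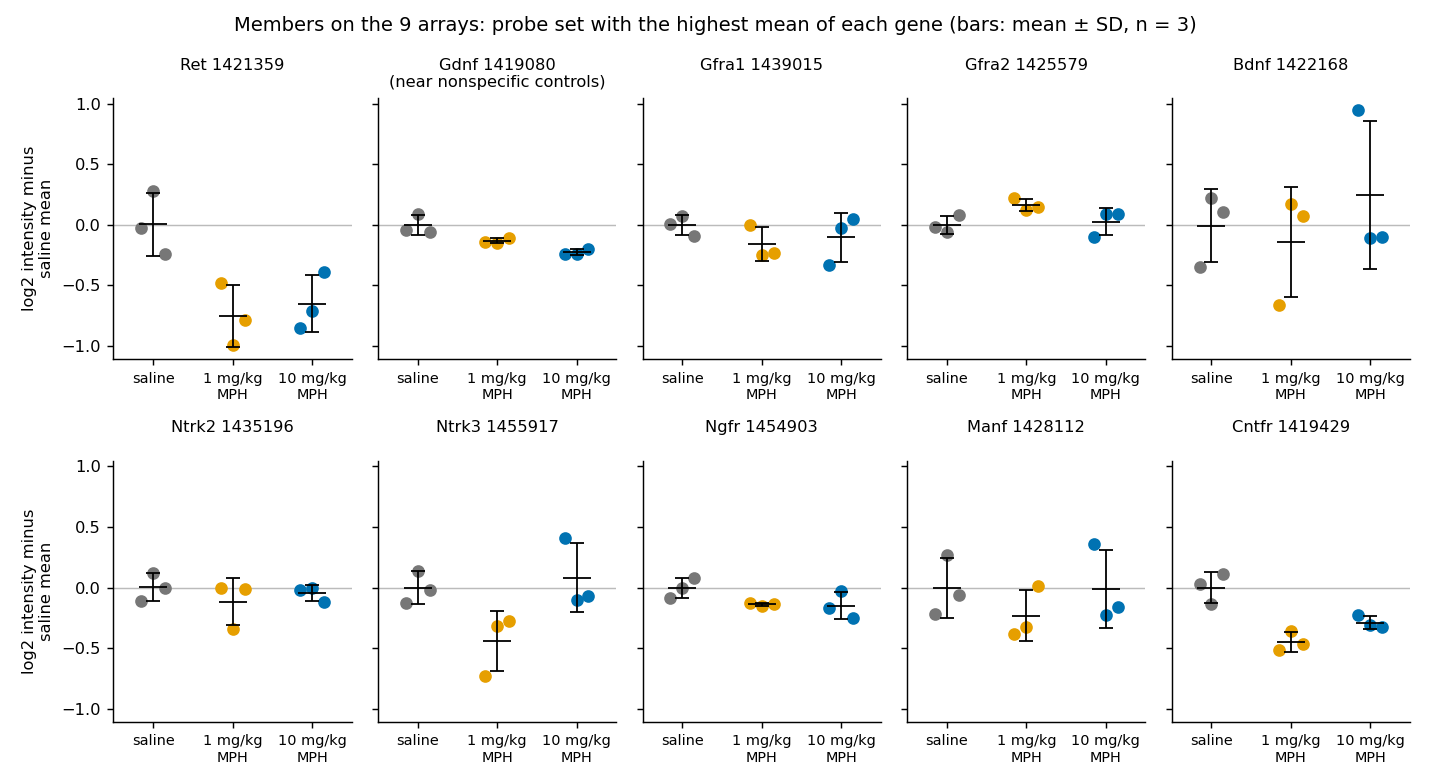
Log2 intensity minus the saline mean (vertical axis) of the probe set with the highest mean of each gene, by labelled dose with saline at left (horizontal axis). Points are arrays and bars are the mean ± SD of 3 arrays. Ret and Cntfr lie below every saline array in both MPH groups, and the Bdnf value of 7.84 on 1 array labelled 10 mg/kg stands alone.

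Before any comparison, each member was set against the 23 nonspecific control probe sets of the array, which match no mouse transcript by design. Their means over the 9 arrays ran between 2.60 and 5.07 with a median of 2.93, and their 95th percentile was 3.59. At or below that percentile lay 6 of the 30 members and 34.3% of all probe sets. These were the Gdnf probe set (mean 3.06), 1 of 3 for Gfra1 (3.51), 1 of 3 for Gfra2 (3.53), 1 of 7 for Ntrk3 (3.18) and 2 of 3 for Ngfr (3.05 and 3.30). A single bright control set the upper end of the range, and 13 members lay at or below it. The third Ngfr probe set, 1454903_PM_at with a mean of 4.44, was among those 13, so Ngfr and Gdnf were the genes with no probe set above every control. In these genes a low intensity cannot be told from nonspecific binding. For Ngfr 1454903_PM_at this rests on that 1 bright control, since the second highest control had 3.59.

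**Figure D2:**
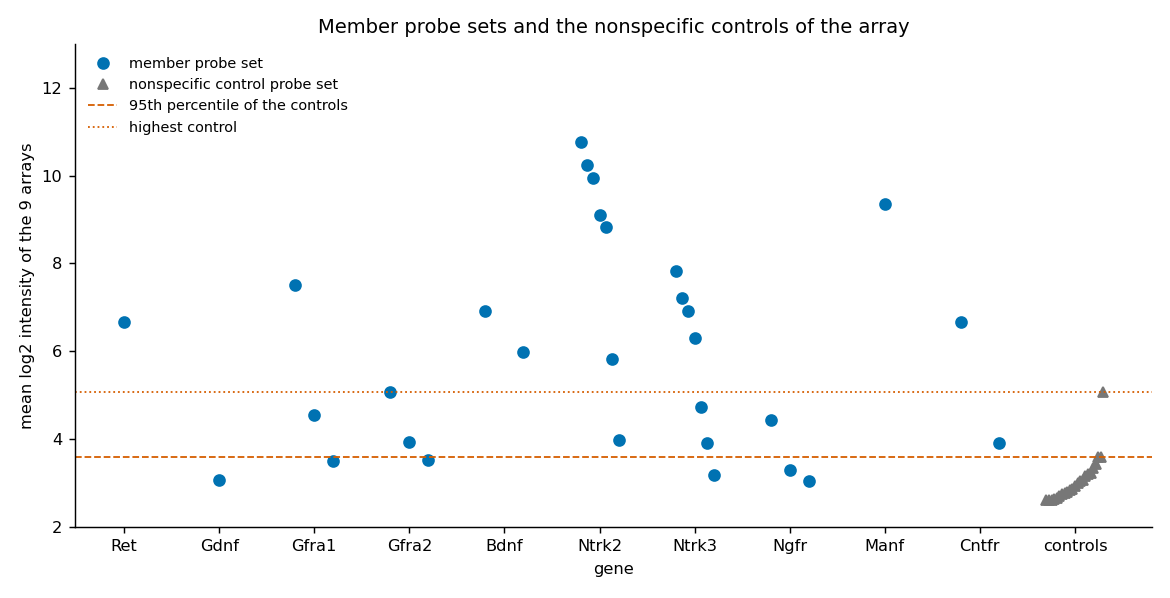
Mean log2 intensity of the 9 arrays (vertical axis) for each of the 30 member probe sets by gene and for the 23 nonspecific control probe sets (horizontal axis). The dashed line is the 95th percentile of the controls, 3.59, and the dotted line the highest control, 5.07. Gdnf lies below the dashed line and all 3 Ngfr probe sets lie below the dotted line.

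In the arrays labelled 1 mg/kg, 21 of the 30 members (70.0%) lay lower than in saline, against 51.4% of all probe sets, with a median difference of -0.12 for the members and -0.005 for all probe sets. At an unadjusted p under 0.05 there were 7 members, all lower, beside a background of 10.3% of all probe sets in either direction and 5.77% in the lower one. Complete separation, with all 3 MPH arrays below all 3 saline arrays, was seen for 8 members and for 12.4% of all probe sets. The smallest adjusted p of a member was 0.378.

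For the arrays labelled 10 mg/kg, 21 members again lay lower, against 52.3% of all probe sets, and the medians were -0.09 for the members and -0.008 for all. Here 4 members had an unadjusted p under 0.05, all lower, beside backgrounds of 9.59% in either direction and 5.51% in the lower one. All 3 MPH arrays lay below all 3 saline arrays for 6 members and for 13.1% of all probe sets, and the smallest adjusted p was 0.433. Of the 24 members that were not near the nonspecific controls, 2 (8.33%) had such an unadjusted p at 10 mg/kg, each lower. Complete separation was seen for 3 of these 24 (12.5%). Their shares were thus close to the 9.59% and 13.1% of all probe sets. At 1 mg/kg each of these counts was 6 of the 24 (25.0%). The backgrounds were not restricted in this way. Both comparisons share the same 3 saline arrays, and probe sets of a gene read the same RNA, so these counts are not independent of each other.

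Across all 45037 probe sets, limma with the block passed 0 (0.0%) at an adjusted p of 0.05 in each comparison. Without the block it passed 54 (0.12%) for 1 mg/kg, 115 (0.255%) for 10 mg/kg and 207 (0.46%) for the mean of both doses against saline, and 0 of these were members, although the unnamed probe set that the study lists as Ret, was among them at each dose. Of the 30 members, 4 lay lower on all 6 MPH arrays than on all 3 saline arrays (13.3%), beside 5.8% of all probe sets. They were Ret, Cntfr, Gdnf and 1 Ngfr probe set, the last 2 in the range of the controls.

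**Figure D3:**
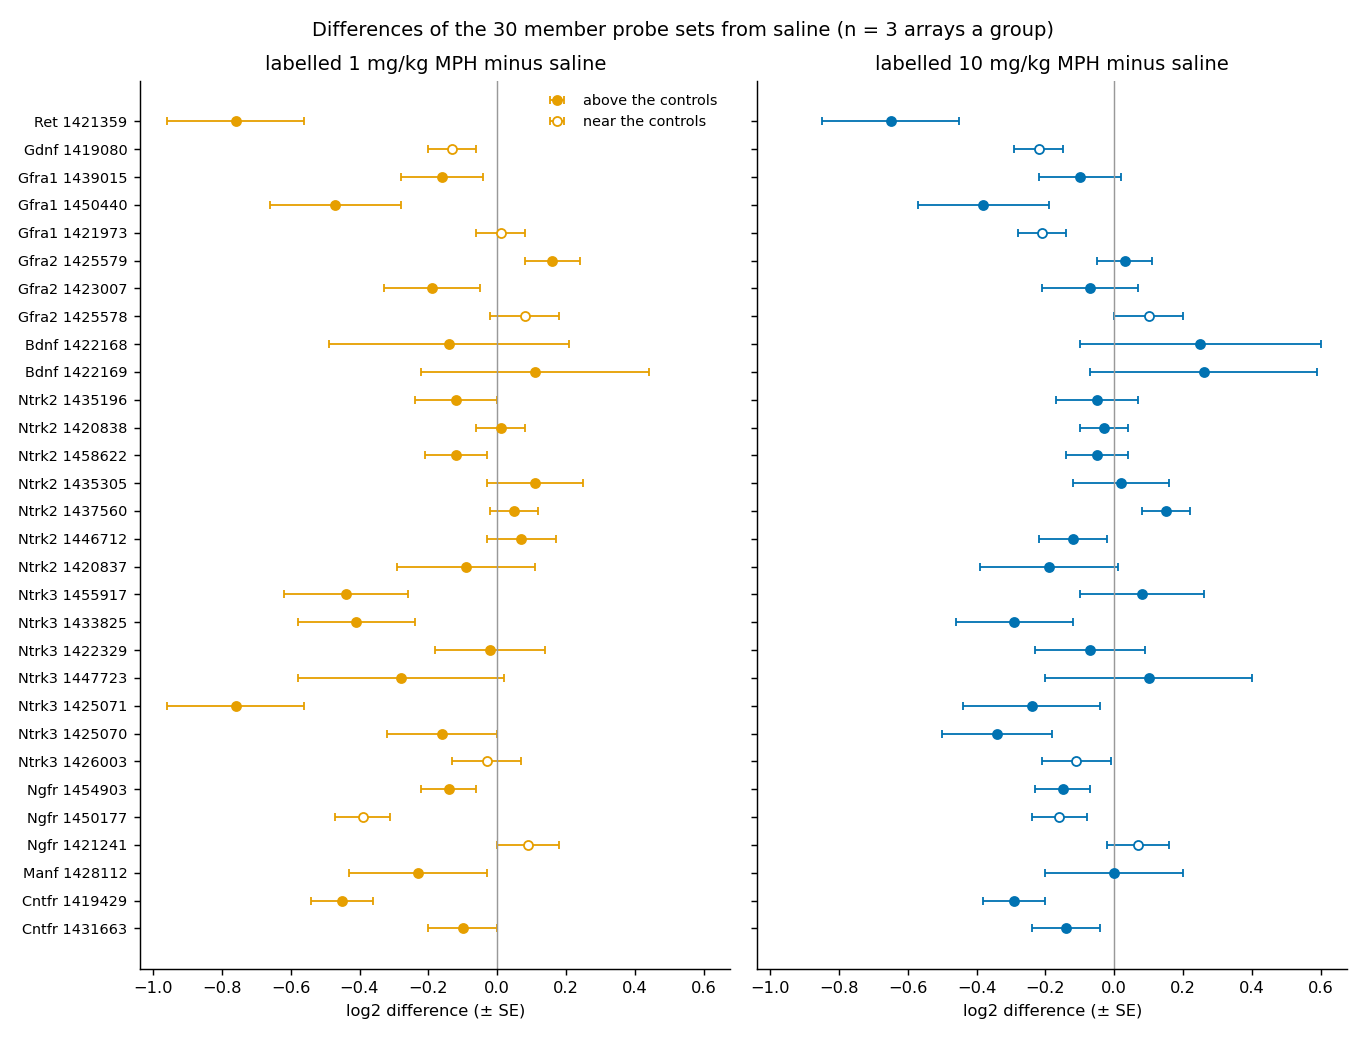
Log2 difference from saline ± SE (horizontal axis) of all 30 member probe sets (vertical axis), for arrays labelled 1 mg/kg at left and 10 mg/kg at right. Open symbols mark the 6 probe sets near the nonspecific controls. The lowest values, -0.76 at 1 mg/kg and -0.65 at 10 mg/kg, belong to Ret, and Ntrk3 1425071 shares the first of them.

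The ligand Gdnf was read by 1 probe set, 1419080_PM_at. Its log2 intensities were 3.14, 3.27 and 3.12 in saline, 3.04, 3.03 and 3.07 at 1 mg/kg, and 2.94, 2.94 and 2.98 at 10 mg/kg. All MPH arrays lay under all saline arrays, but of the 23 nonspecific controls 9 had a higher mean than this probe set. The differences were -0.13 at 1 mg/kg and -0.22 at 10 mg/kg (SE 0.07, adjusted p = 0.582 and 0.453, limma), and they are differences within the range of nonspecific signal.

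Bdnf was read by 2 probe sets designed on the same sequence record. For the brighter, 1422168_PM_a_at, the values were 6.54, 7.11 and 7.0 in saline, 6.23, 7.06 and 6.96 at 1 mg/kg, and 7.84, 6.78 and 6.79 at 10 mg/kg. Replicate 1 was the lowest array in the saline and 1 mg/kg groups and the highest in the 10 mg/kg group, and all groups overlapped. Over all probe sets the values hold almost no difference between replicate numbers. A high array in 1 group thus tends to go with low same-numbered arrays in the others, and this order is not a separate observation. The differences were -0.14 at 1 mg/kg and 0.25 at 10 mg/kg (SE 0.35, adjusted p = 0.916 and 0.841, limma). The second became -0.32 once replicate 1 of the 10 mg/kg group was left out. That fit, like every other with an array left out, kept the block and so compares arrays within replicate numbers. The value is therefore not the plain difference of means, as the remaining arrays lay at 6.78 and 6.79 against a saline mean of 6.89.

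The second Bdnf probe set, 1422169_PM_a_at, showed the same array standing out, with 6.75, 5.69 and 5.91 in the arrays labelled 10 mg/kg against 5.49, 6.08 and 5.98 in saline. That array also carried the highest mean level of 9 marker genes of cortex and hippocampus, such as Neurod6 and Slc17a7. This mean was 6.38 there, against 5.23 to 5.67 on the other arrays, and the mean of 7 vascular and leptomeningeal markers was 7.02 there against 5.57 to 6.34. Tbr1, a defining gene of the cortical list, stayed in the range of the controls at 3.37. Cux2 of the same list had its lowest value there, 8.07 against 8.31 to 8.86 on the other arrays. Lamp5, at 6.71 there, was higher on replicate 2 of saline, at 7.17. The part of these cells in the Bdnf value was not tested.

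Manf, read by 1428112_PM_at, had 9.21, 9.70 and 9.37 in saline, 9.05, 9.10 and 9.44 at 1 mg/kg, and 9.79, 9.20 and 9.27 at 10 mg/kg. The groups overlapped at both doses. The mean at 10 mg/kg, 9.42 ± 0.32, was close to that of saline, 9.43 ± 0.25 (SD, n = 3 each), and at 1 mg/kg the difference was -0.23 (SE 0.20, adjusted p = 0.727, limma), or -0.02 without replicate 2 of saline and -0.12 without replicate 1 of the 1 mg/kg group. Replicate 2 of saline and replicate 1 of 10 mg/kg were the highest arrays.

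The array-to-array pattern of Manf was set beside 16 genes of the unfolded protein response, the programme that raises chaperones and folding enzymes. Likeness was the mean absolute difference over the 9 arrays after each probe set was centred on its own mean, ranked among 20445 probe sets of other genes. Pdia6, a disulfide isomerase, ranked 20 with a mean absolute difference of 0.0762, Pdia4, another, ranked 152 at 0.105 and Xbp1, a transcription factor of the response, ranked 784 at 0.140, where the median over all was 0.224. The others ranked between 2732 and 14175, with Hspa5, the main chaperone, at 2852. Replicate 2 of saline and replicate 1 of 10 mg/kg were high for Manf (0.35 and 0.44 above its mean), Pdia6 (0.34 and 0.36) and Pdia4 (0.25 and 0.32). This ranking for Manf was chosen after its values had been seen, and the 9 arrays share their dissection.

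**Figure D4:**
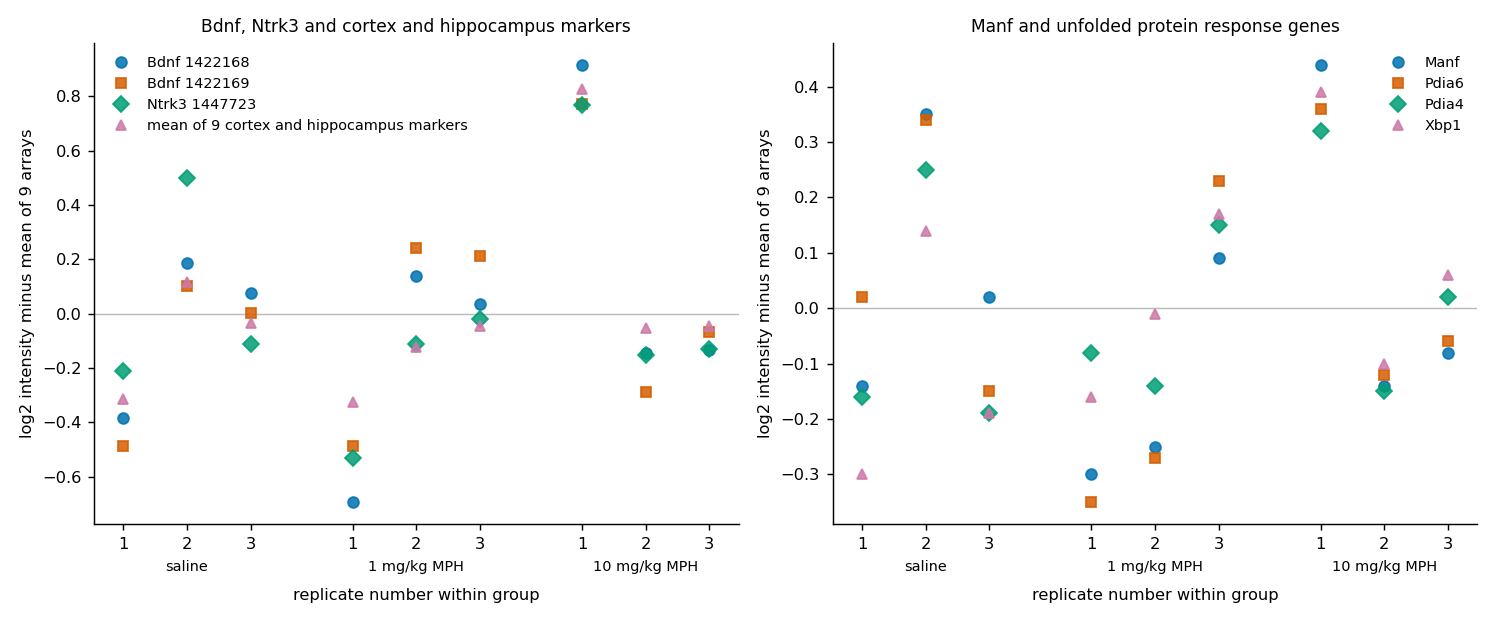
Log2 intensity minus the mean of the 9 arrays (vertical axes) by array, numbered within its group (horizontal axes). At left are both Bdnf probe sets, Ntrk3 1447723 and the mean of 9 cortex and hippocampus markers, all highest on replicate 1 of the 10 mg/kg group. Of other Ntrk3 probe sets, 1455917 was also highest there (8.36), and 1422329 had 7.15 there and on replicate 2 of 1 mg/kg. Ntrk3 1433825, 1425071 and 1425070 were highest on replicate 2 of saline (7.68, 5.43 and 4.25), and 1426003 on replicate 2 of 1 mg/kg (3.35). At right are Manf, Pdia6, Pdia4 and Xbp1, with Manf 0.44 above its mean on that same array.

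Ret, the signalling receptor of the GDNF family, lay lowest among the members relative to saline, at 1 mg/kg together with an Ntrk3 probe set. Probe set 1421359_PM_at had 7.11, 7.42 and 6.90 in saline, 6.66, 6.15 and 6.35 at 1 mg/kg, and 6.29, 6.43 and 6.75 at 10 mg/kg. The 6 MPH arrays spanned 6.15 to 6.75 and the 3 saline arrays 6.90 to 7.42, without overlap. The differences were -0.76 and -0.65 (SE 0.20), which is 59.1% and 63.5% of saline, with adjusted p = 0.396 and 0.433 (limma). Over both doses the difference was -0.71 (SE 0.17, adjusted p = 0.331, limma). Between the doses Ret differed by 0.10 (SE 0.20, adjusted p = 0.94, limma).

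The highest Ret value, 7.42, came from replicate 2 of saline. Without that array the differences were -0.54 at 1 mg/kg and -0.44 at 10 mg/kg. On that array the mean of 2 measured raphe markers, Tph2 and Slc6a4 of serotonin neurons, was 6.95. It ran between 4.16 and 6.95 on the saline arrays, between 3.17 and 3.86 at 1 mg/kg and between 3.44 and 4.76 at 10 mg/kg. The part of raphe tissue in the Ret values was not tested.

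A further probe set, 1436359_PM_at, carries no symbol in the platform annotation and so is outside the 30 members, but the study listed it as Ret. Its values were 11.21, 11.33 and 11.22 in saline, 10.60, 10.62 and 10.72 at 1 mg/kg, and 10.81, 10.88 and 10.77 at 10 mg/kg. The group means were 11.25 ± 0.06 in saline, 10.65 ± 0.07 at 1 mg/kg and 10.82 ± 0.06 at 10 mg/kg (SD, n = 3 each), differences of -0.61 and -0.43 (SE 0.07). In limma the adjusted p was 0.316 and 0.351 with the block and 0.0218 and 0.0415 without it. The study chose this entry on these same arrays, so the values are a description and add no independent support.

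Dopamine neurons express Ret, and their marker genes lay lower on the same arrays. Of 14 measured markers, among them Th and Slc6a3, 13 lay lower at 1 mg/kg and 14 at 10 mg/kg, with median differences of -0.53 and -0.42. The mean of the list ran between 8.40 and 8.59 in saline, between 7.89 and 8.02 at 1 mg/kg and between 8.03 and 8.07 at 10 mg/kg. Th, the rate-limiting enzyme of dopamine synthesis, averaged 11.10 in saline, 10.44 at 1 mg/kg and 10.53 at 10 mg/kg. The list passed 0 genes with the block in either comparison and 4 in each without it. Lmx1b of this list lay in the range of the controls. In pieces of tissue, fewer cells of a type and less RNA per cell cannot be told apart, and the part of the dopamine neurons in the Ret difference was not tested.

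**Figure D5:**
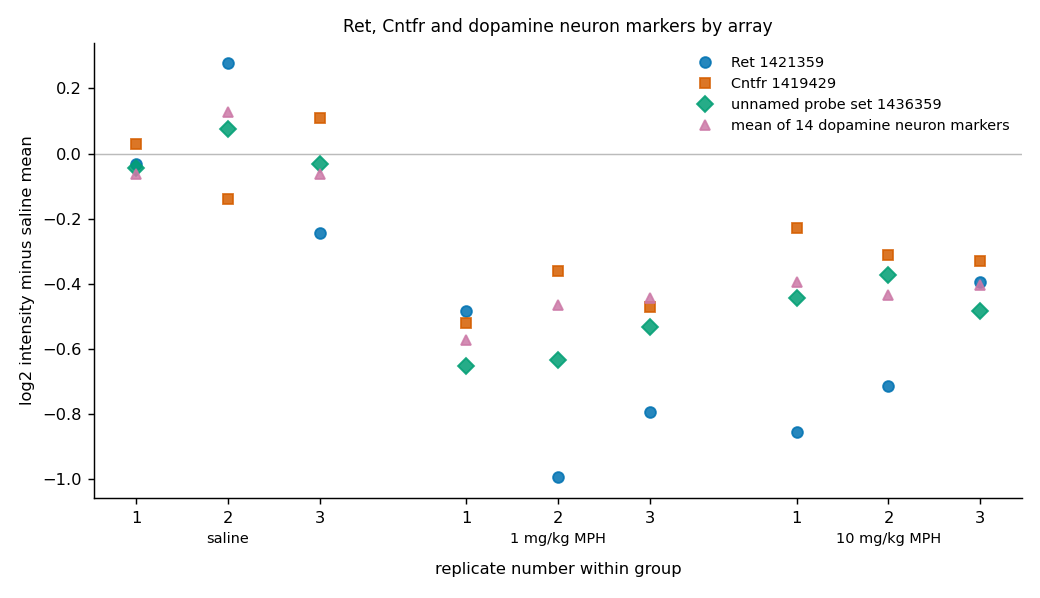
Log2 intensity minus the saline mean (vertical axis) on the 9 arrays, numbered within each group (horizontal axis), for Ret, Cntfr, the unnamed probe set that the study lists as Ret, and the mean of 14 dopamine neuron markers. On the 6 MPH arrays all 4 lie below their 3 saline values.

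The probe sets whose array values were closest to Ret, by the same measure of likeness, were those of C130021I20Rik (0.0839), Ttc6 (0.0981), Ptgr2 (0.106), Abtb2 (0.107) and Phkg1 (0.114), where the median over 20445 probe sets was 0.335. None of these 5 was among the 14 dopamine neuron markers. With only 5 places among 20445 probe sets, so short a list could hardly appear there, and no conclusion is drawn. The ranks of the markers themselves are not given.

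Gfra1, the GDNF coreceptor, was read by 3 probe sets. The brightest, 1439015_PM_at, had 7.60, 7.66 and 7.50 in saline, 7.59, 7.34 and 7.36 at 1 mg/kg, and 7.26, 7.56 and 7.64 at 10 mg/kg. The groups overlapped, with differences of -0.16 and -0.10 (SE 0.12, adjusted p = 0.692 and 0.815, limma).

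A dimmer Gfra1 probe set, 1450440_PM_at, lay between the 95th percentile and the highest control. It had 4.75, 5.23 and 4.51 in saline, 4.57, 4.24 and 4.27 at 1 mg/kg, and 4.40, 4.30 and 4.65 at 10 mg/kg. Replicate 2 of saline was again the highest array. The differences were -0.47 and -0.38 (SE 0.19, adjusted p = 0.475 and 0.565, limma), and without that array -0.20 and -0.11.

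The third Gfra1 probe set, 1421973_PM_at, was among the 6 near the controls, with 3.58, 3.64 and 3.49 in saline, 3.66, 3.52 and 3.57 at 1 mg/kg and 3.38, 3.39 and 3.33 at 10 mg/kg. Only the arrays labelled 10 mg/kg lay apart, at -0.21 (SE 0.07, adjusted p = 0.468, limma). The 3 probe sets thus gave values of different size for one gene, and none passed the test.

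Gfra2, the neurturin coreceptor, had 4.99, 4.95 and 5.09 in saline, 5.23, 5.13 and 5.16 at 1 mg/kg, and 4.91, 5.10 and 5.10 at 10 mg/kg on probe set 1425579_PM_at. It was the only brightest probe set of a gene that lay higher on all 3 arrays labelled 1 mg/kg than on all saline arrays, as did 10.7% of all probe sets, by 0.16 (SE 0.08, adjusted p = 0.535, limma). At 10 mg/kg the difference was 0.03 and the groups overlapped. The other 2 Gfra2 probe sets averaged 3.93 and 3.53, close to or in the range of the controls, and differed from saline by -0.19 to 0.10.

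Ntrk2, which encodes the BDNF receptor TrkB, was read by 7 probe sets with means between 3.98 and 10.76. The brightest, 1435196_PM_at, had 10.70, 10.93 and 10.81 in saline, 10.81, 10.47 and 10.80 at 1 mg/kg, and 10.79, 10.81 and 10.69 at 10 mg/kg. All groups overlapped, with differences of -0.12 and -0.05 (SE 0.12, adjusted p = 0.758 and 0.904, limma).

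Over the 7 Ntrk2 probe sets the differences ran between -0.12 and 0.11 at 1 mg/kg and between -0.19 and 0.15 at 10 mg/kg, with SEs between 0.07 and 0.20. Of these, 1420838_PM_at varied least, with a range of 0.14 over the 9 arrays and differences of 0.01 and -0.03 (SE 0.07). Signs were mixed, with 3 of 7 lower at 1 mg/kg and 5 of 7 at 10 mg/kg. The annotation does not say which of them reads the full-length kinase and which the truncated forms of the receptor.

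Ntrk3, the receptor of neurotrophin-3, differed more between its probe sets. The brightest, 1455917_PM_at, had 7.82, 8.09 and 7.93 in saline, 7.22, 7.63 and 7.67 at 1 mg/kg, and 8.36, 7.85 and 7.88 at 10 mg/kg. All arrays labelled 1 mg/kg lay below all saline arrays, at -0.44 (SE 0.18, adjusted p = 0.472, limma), or -0.24 without replicate 1 of that group. At 10 mg/kg the groups overlapped and the difference was 0.08, or -0.19 without replicate 1 in the fit with the block. Bdnf was also highest on that array.

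Between the doses this Ntrk3 probe set had 7.85 to 8.36 in the arrays labelled 10 mg/kg and 7.22 to 7.67 in those labelled 1 mg/kg, a difference of 0.52 (SE 0.18, unadjusted p = 0.0218, adjusted p = 0.774, limma). At an unadjusted p under 0.05, 4 of the 30 members differed between the doses, 3 of them higher at 10 mg/kg, beside 6.39% of all probe sets in either direction and 3.0% in the higher one, and 0 members (background 0.0%) passed the adjusted p. The count of 4 became 1 without replicate 1 of the 1 mg/kg group. It became 2 without replicate 3 of that group, or without replicate 2 or 3 of the 10 mg/kg group. Of all probe sets, 5.13% to 7.08% had such a p in these fits.

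A second Ntrk3 probe set, 1433825_PM_at, had 7.35, 7.68 and 7.29 in saline, 7.24, 6.69 and 7.16 at 1 mg/kg, and 7.31, 7.11 and 7.02 at 10 mg/kg. Here both MPH groups lay lower, by -0.41 and -0.29 (SE 0.17, adjusted p = 0.472 and 0.597, limma), and at 10 mg/kg 1 array overlapped with saline. The first value was -0.19 without replicate 2 of the 1 mg/kg group and -0.20 without replicate 2 of saline, and the second was -0.08 without replicate 2 of saline.

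The probe set 1425071_PM_s_at, whose suffix marks probes shared by several transcripts, had 4.77, 5.43 and 5.00 in saline, 4.52, 4.03 and 4.38 at 1 mg/kg, and 4.99, 4.76 and 4.75 at 10 mg/kg. It gave the second of the lowest values at 1 mg/kg, -0.76 (SE 0.20, adjusted p = 0.397, limma), with no overlap, and -0.24 at 10 mg/kg. Its mean of 4.74 was below the highest control. Without replicate 2 of saline the values were -0.49 and 0.03 in the fit with the block.

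All 7 Ntrk3 probe sets lay lower in the arrays labelled 1 mg/kg, between -0.76 and -0.02, and 5 of 7 in those labelled 10 mg/kg, between -0.34 and 0.10. Of the 7, 3 had an unadjusted p under 0.05 at 1 mg/kg and 0 at 10 mg/kg, beside 10.3% and 9.59% of all probe sets. The 7 read RNA of the same gene and are not independent. Of the 3, 1425071_PM_s_at lay below the highest control. Markers of the thalamus, which borders the midbrain, had a median difference of 0.84 at 1 mg/kg and 0.04 at 10 mg/kg over 7 genes. At 1 mg/kg 5 of them lay higher and 2 lower, Calb2 at -0.77 (SE 0.30) and Slc17a6 at -0.05 (SE 0.15). The mean of the list on each array labelled 1 mg/kg, between 8.21 and 8.46, was above that of every saline array (7.25 to 8.08). The part of thalamic tissue in the Ntrk3 values was not tested.

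Ngfr, the p75 receptor, had 4.45, 4.54 and 4.62 in saline, 4.41, 4.39 and 4.40 at 1 mg/kg, and 4.37, 4.51 and 4.29 at 10 mg/kg on its brightest probe set, 1454903_PM_at. The differences were -0.14 and -0.15 (SE 0.08, adjusted p = 0.584 and 0.593, limma), with 1 array labelled 10 mg/kg overlapping saline. The nearest probe sets by array pattern were those of Slc16a4 (0.0264), Cdo1 (0.0275), Mast2 (0.031), Tm7sf2 (0.0318) and Rab2a (0.0366), where the median was 0.123.

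The dimmer Ngfr probe set 1450177_PM_at had the smallest unadjusted p of all members at 1 mg/kg, 0.00111 in limma. Its values were 3.52, 3.39 and 3.53 in saline, 3.07, 3.16 and 3.04 at 1 mg/kg, and 3.32, 3.34 and 3.31 at 10 mg/kg, so that all 3 groups were apart from each other. The differences were -0.39 and -0.16 (SE 0.08, adjusted p = 0.378 and 0.552, limma). All of these values lie in the range of the nonspecific controls, of which 5 had a higher mean, and the third Ngfr probe set, also in that range, had positive differences of 0.09 and 0.07.

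Cntfr, the ciliary neurotrophic factor receptor, had the smallest adjusted p of any member above the controls at 1 mg/kg and over both doses. Probe set 1419429_PM_at had 6.93, 6.76 and 7.01 in saline, 6.38, 6.54 and 6.43 at 1 mg/kg, and 6.67, 6.59 and 6.57 at 10 mg/kg. The 6 MPH arrays, between 6.38 and 6.67, lay below the 3 saline arrays, between 6.76 and 7.01. The group means were 6.90 ± 0.13 in saline, 6.45 ± 0.08 at 1 mg/kg and 6.61 ± 0.05 at 10 mg/kg (SD, n = 3 each).

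The Cntfr differences were -0.45 and -0.29 (SE 0.09, adjusted p = 0.378 and 0.448, limma), or 73.2% and 81.9% of saline. Over both doses the difference was -0.37 (SE 0.08, adjusted p = 0.314, limma). Leaving out any 1 array kept the difference between -0.54 and -0.38 at 1 mg/kg and between -0.37 and -0.22 at 10 mg/kg. The second Cntfr probe set, 1431663_PM_a_at with a mean of 3.90, below the highest control, had -0.10 and -0.14 (SE 0.10), and the mean of both probe sets differed by -0.27 and -0.22.

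Like Cntfr, the mean of the dopamine neuron markers was lower on the 6 MPH arrays than on the 3 saline arrays. Of 5 measured motor and cholinergic markers, 3 were in the range of the controls, and the median difference of the list was -0.04 at each dose. The other 2 were Prph, which encodes peripherin of motor and sensory neurons, at -1.18 and -0.46 (SE 0.23), and Isl1, a transcription factor of motor neurons, at 0.26 and 0.36 (SE 0.44). The part of any of these neurons in the Cntfr values was not tested.

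For Bdnf the nearest probe sets by array pattern were those of St6galnac5 (0.0911), Bmp7 (0.0997), Gdf10 (0.103), Fbxl7 (0.105) and Neto1 (0.109), where the median over 20444 was 0.324.

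Of other genes of these pathways, 76 were measured by a probe set of their own. None passed the adjusted p in either comparison with or without the block, and at an unadjusted p under 0.05 there were 9 (11.8%) at 1 mg/kg and 7 (9.21%) at 10 mg/kg, beside backgrounds of 10.3% and 9.59%. The counts were thus close to those of all probe sets.

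Among 6 further GDNF family ligands and coreceptors, Gfra3, the artemin coreceptor, had 4.16, 4.01 and 3.85 in the arrays labelled 1 mg/kg against 3.61, 3.72 and 3.76 in saline, a difference of 0.31 (SE 0.10, adjusted p = 0.424, limma), and 0.06 at 10 mg/kg. Gfra4, the persephin coreceptor, lay at -0.09 and -0.18 (SE 0.08). Artn, which encodes artemin, was in the range of the controls at a mean of 3.36.

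Of 7 measured genes among other neurotrophins and their receptors, Sorl1, a sorting receptor of the sortilin family, had 11.10, 11.28 and 11.06 at 1 mg/kg against 10.92, 10.81 and 10.90 in saline, a difference of 0.27 (SE 0.08, adjusted p = 0.417, limma), and 0.16 at 10 mg/kg. Its relatives Sorcs1 (-0.30 and -0.37, SE 0.14) and Sorcs2 (-0.28 and -0.27, SE 0.12) lay on the other side. Within this family the signs were therefore mixed.

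In the CNTF family, Osmr, the oncostatin M receptor, had 4.47, 4.67 and 4.63 in saline, 4.84, 5.11 and 4.85 at 1 mg/kg, and 5.54, 5.16 and 5.18 at 10 mg/kg. The 3 groups did not overlap, and the values lay higher at the higher labelled dose. The differences were 0.35 and 0.71 (SE 0.13, adjusted p = 0.452 and 0.351, limma), opposite in sign to those of Cntfr. Lifr, a signalling receptor of CNTF and LIF, differed by -0.02 and 0.06 (SE 0.08), and Clcf1, a ligand of the CNTF receptor, was in the range of the controls.

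Among 27 adaptors and kinases below RET and TRK, 19 lay lower at 1 mg/kg and 16 at 10 mg/kg, with medians of -0.07 and -0.03. Of all probe sets 51.4% and 52.3% did so. Bex3, an adaptor of the p75 receptor, had 11.60, 11.69 and 11.68 in saline, 11.42, 11.40 and 11.39 at 1 mg/kg, and 11.53, 11.53 and 11.48 at 10 mg/kg, without overlap in either comparison (-0.26 and -0.14, SE 0.07, adjusted p = 0.399 and 0.554, limma). Grb10 (-0.28 and -0.21, SE 0.10) and Grb2 (-0.32 and -0.23, SE 0.14), both adaptors of receptor kinases, lay on the same side.

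Of 15 feedback inhibitors and immediate targets of RET and TRK signalling, 11 lay higher at 1 mg/kg and 14 at 10 mg/kg, with medians of 0.12 and 0.19, and 0 passed the test. Over all probe sets 51.4% and 52.3% lay lower. The 4 lower genes at 1 mg/kg included Arc, at -0.25 (SE 0.09), which lay at 0.25 at 10 mg/kg. Fos, an immediate early gene, had 9.43, 8.34 and 9.08 at 10 mg/kg against 7.76, 8.32 and 8.04 in saline, a difference of 0.91 (SE 0.32, adjusted p = 0.466, limma), and 0.17 at 1 mg/kg. Etv4, a transcription factor, had 4.32, 4.34 and 4.27 at 1 mg/kg against 4.03, 4.04 and 3.97 in saline, a difference of 0.29 (SE 0.06, adjusted p = 0.378, limma), and 0.09 at 10 mg/kg. Spry2, an inhibitor of receptor kinase signalling, lay at 0.25 and 0.19 (SE 0.08).

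Of the 16 unfolded protein response genes, 12 lay higher at each dose, with medians of 0.09 and 0.11, while Manf did not. Of all probe sets 51.4% lay lower at 1 mg/kg and 52.3% at 10 mg/kg. Dnajc3, a chaperone of the endoplasmic reticulum, had 8.39, 8.56 and 8.45 in saline, 8.62, 9.18 and 8.85 at 1 mg/kg, and 9.17, 8.65 and 8.81 at 10 mg/kg, with no overlap (0.42 and 0.41, SE 0.17, adjusted p = 0.478 and 0.518, limma). Hspa5 (0.18 and 0.32, SE 0.18) and Herpud1 (0.13 and 0.18, SE 0.10) overlapped with saline in at least 1 comparison.

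One measure of RNA quality moved with the groups. For the Actb control probe sets, the 3′ signal exceeded the 5′ signal on the log2 scale by 1.027 to 1.187 on the MPH arrays and by 0.882 to 0.934 on the saline arrays. For Gapdh the same gap ran between 0.224 and 0.409 on the MPH arrays and between 0.231 and 0.387 on the saline arrays. The part of RNA quality in the differences of Ret and Cntfr was not tested.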

How the data were processed

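Values were the deposited log2 intensities, which the authors made with Robust Multichip Average (background correction, quantile normalization over arrays and a summary per probe set; version not given in the sources used here). A ComBat correction of the 3 replicates is named in the methods, and whether the deposited log2 values carry it is not given in the sources used here. The values themselves hold almost no difference between replicate numbers, as values after such a correction would. Array medians lay between 4.49 and 4.53, and the number of arrays limits the precision. Gene symbols came from the platform annotation, in which 28898 probe sets named 1 gene, 551 several and 15588 none, and all 30 members had an identifier in the RefSeq mouse annotation.

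All 45037 probe sets (104 controls left out) entered 1 linear model (lmFit and eBayes of limma 3.58.1, R 4.3.3) of group plus replicate number as an additive block, two-sided, Benjamini-Hochberg, threshold 0.05. The pairing comes from the batch of replicates in the methods. The deviations of same-numbered arrays correlated between -0.132 and -0.626, and the replicate-number means had an SD of 0.0296 where 0.1 would be expected from the residual SD of 0.174, so that the values hold almost no difference between replicate numbers. A high array in 1 group therefore tends to go with low same-numbered arrays in the others, for members and marker means alike. The block keeps the degrees of freedom that such a correction uses (4 residual, 7.5 with moderation).

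Levels are compared across arrays within a probe set. Near the controls means a mean at or below the 95th percentile of 23 nonspecific controls. Values per array are printed for the brightest probe set of each gene and for any other with an unadjusted p of 0.05 or less, and the second Bdnf probe set and 1 of Ntrk2 were added after their values were seen. Pathway lists name up to 3 genes each by the smallest p, and Arc was added after its values were seen. For a listed gene the brightest probe set stands. Likeness names the 5 nearest probe sets. Members, lists and rules were chosen with earlier results of these data known. The limma script was tested on simulated data with a strong difference between replicate numbers and larger changes than those of the members. That test checks the code and says nothing of the power in these data.

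The study's list for 1 mg/kg had 115 entries, of which 76 were found by sequence accession, and the values of all 76 equal the differences of the arrays labelled 10 mg/kg within 5e-04. Its list for 10 mg/kg had 54 entries, of which 36 were found, and all 36 equal the differences at the label 1 mg/kg. The numbers of entries, 115 and 54, equal the counts passed without the block at the labels 10 mg/kg and 1 mg/kg. The unnamed probe set was the only one to match the Ret entries. Groups follow the deposited labels.

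Alternatives were no block, only the groups compared, a second quantile normalization, median centring, brighter probe sets only, array weights, an intensity trend with the robust option, other thresholds, probe sets averaged by gene, the highest nonspecific control as limit, and each array left out. Fits with an array left out kept the block, so their differences are not plain differences of the group means.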

Additional observations from a re-analysis of the deposited data

How the results depend on the processing

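No member passed the adjusted p of 0.05 in a comparison with saline under any alternative run. Without the replicate block the smallest adjusted p of a member was 0.0512 at 1 mg/kg (an Ngfr probe set near the controls), 0.111 at 10 mg/kg and 0.0519 over both doses (Cntfr), and the counts over all probe sets were 54, 115 and 207 in place of 0. These counts use degrees of freedom that a batch correction by replicate would have taken. An intensity trend with the robust option gave 2, 1 and 3, and a threshold of 0.1 gave 1 over both doses. With each array left out the counts ranged between 0 and 1 in all 3 comparisons, and the 1 came without saline replicate 2, or, over both doses, also without saline replicate 1. The fit of only the groups compared gave no value over both doses. With the highest control as limit 13 members were near the controls, in place of 6.

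Ret kept its sign with each array left out, between -0.96 and -0.54 at 1 mg/kg and between -0.85 and -0.44 at 10 mg/kg. Of the 30 members, 4 at 1 mg/kg and 2 at 10 mg/kg had an unadjusted p under 0.05 without saline replicate 2, all lower. Of all probe sets 7.02% and 8.97% did so in either direction. Leaving out replicate 2 of the 1 mg/kg group gave 4 at that dose, beside 5.89% of all. Leaving out replicate 2 of the 10 mg/kg group gave 2 at that dose, beside 10.1%. Without replicate 1 of 10 mg/kg there were 7 at 1 mg/kg and 6 at 10 mg/kg, beside 12.2% and 8.08%. Signs turned for values close to 0 or set by 1 array, and the fits with an array left out kept the block. At 10 mg/kg, Ntrk3 1455917_PM_at became -0.03 with array weights and -0.12 as the mean of its probe sets, and Manf became 0.02 after a second quantile normalization. With each array left out, values at 10 mg/kg ranged between -0.22 and 0.05 for Gfra1 1439015_PM_at, -0.03 and 0.10 for Gfra2, -0.32 and 0.56 for Bdnf, -0.15 and 0.05 for Ntrk2, -0.19 and 0.24 for Ntrk3 1455917_PM_at, -0.47 and 0.03 for Ntrk3 1425071_PM_s_at and -0.28 and 0.21 for Manf. At 1 mg/kg they ranged between -0.02 and 0.06 for Gfra1 1421973_PM_at, -0.35 and 0.21 for Bdnf and -0.21 and 0.03 for Ntrk2. The cause of these changes was not tested.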
